A study of Mus musculus with 10 samples.

Results

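The genes of the cell death machinery followed here, 9 in number and taken by name, were measured in bulk RNA of mouse forelimb buds: the receptor genes Fas, Eda2r, Tnfrsf10b and Tnfrsf1a, the adaptor gene Fadd, the caspase genes Casp8 and Casp9, the apoptosome gene Apaf1 and the nuclease gene Aen. All 9 were present among the 47729 genes of the deposited count table, each under 1 Ensembl identifier, and all 9 passed the filter on low counts that left 20562 genes for testing. The 10 libraries came from embryos at E11.5 to E12, 5 controls and 5 conditional knockouts of Cxxc1, which encodes a CpG-binding subunit of the SET1 complexes that methylate histone H3. Every knockout carried Prx1Cre, a Cre active in the mesenchyme of the limb bud, together with 2 floxed Cxxc1 alleles. Control 1 carried Prx1Cre and 1 floxed allele, controls 2 and 4 had no Cre and 1 floxed allele, control 3 had no Cre and floxed alleles on both chromosomes, and control 5 had floxed alleles on both chromosomes and a Cre status that its label marks as uncertain. All 10 embryos thus carried at least 1 floxed allele. Litter A gave 2 embryos to each group and litters B, C and D gave 1 each, so that same-numbered control and knockout libraries came from the same litter. Somite stages ran from 49 to 51.

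Apoptosis is entered by way of the cell surface or by way of the mitochondrion. On the surface route, ligands of the TNF family cluster receptors with a death domain, which recruit the adaptor FADD and with it the initiator caspase-8. On the mitochondrial route, cytochrome c binds APAF1, which assembles into the apoptosome and activates caspase-9, and both routes converge on executioner caspases. Programmed cell death shapes the limb in the interdigital tissue and the apical ridge, and several genes of both routes, among them Fas, Tnfrsf10b, Apaf1 and Aen, are textbook targets of the transcription factor p53.

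Library depth ran from 33274911 to 49880815 rounded counts. Levels are given as CPM, counts relative to the library total scaled by TMM, a factor that makes the bulk of genes comparable between libraries. Cxxc1 itself was lower in every knockout library (73.1 to 76.2 CPM) than in every control (89.5 to 105.8 CPM), with a log2 fold change of -0.36 (SE 0.05), counted over the whole gene and not over the deleted part. The forelimb marker Tbx5 was between 160.1 and 206.1 CPM in controls and between 75.9 and 102.8 CPM in knockouts. The hindlimb genes Tbx4 and Pitx1 were low but not at 0, at a summed 10.7 to 13.9 CPM in controls and 10.8 to 15.3 CPM in knockouts. The limb buds are mixtures, and in bulk RNA fewer cells of a type and less RNA per cell cannot be told apart. Markers are counted as higher, risen or fallen by edgeR's quasi-likelihood test at an adjusted p below 0.05. By that test 18.1% of all 20562 genes tested were higher and 17.1% lower. Across the groups, all 10 macrophage markers were higher in knockouts, with summed levels of 55.4 to 68.2 CPM in controls and 203.8 to 242.5 CPM in knockouts. No macrophage marker was at 0 in any library. Of the ectoderm markers 5 of 7 rose (265.3 to 435.3 CPM summed in controls, 469.7 to 564.6 CPM in knockouts), of the endothelial markers 5 of 6 (224.2 to 262.7 and 279.1 to 326.9 CPM), of the erythroid markers 6 of 6 (519.8 to 690.5 and 657.2 to 1256 CPM) and of the muscle precursor markers 5 of 6 (70.6 to 89.8 and 101.8 to 172.6 CPM). Of 7 mesenchyme markers 4 fell, with summed levels of 1729 to 1814 CPM in controls and 949.1 to 1053 CPM in knockouts. Of 5 Schwann and neural crest markers 1 fell, and the summed levels overlapped (48.7 to 56.5 CPM in controls, 48.6 to 54.8 CPM in knockouts). The part of these cell mixtures in the changes below was not tested. Xist stood high in control 1 (4114 CPM) and knockout 3 (2290 CPM), with 0.360 to 5.48 CPM elsewhere, and Eda2r lies on the X chromosome.

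The start regions of 4 of the genes show how unlike their promoters are in CpG, the dinucleotide that CXXC1 binds. RefSeq windows (GRCm38.p6) from 250 bases before to 50 bases after an annotated start were found for 8 of the 9 genes, with Tnfrsf10b the one not matched. Eda2r, the gene with the largest fold change among the 9, had 5 CpG in its window, fewer than the median of 7 over 32851 windows of the same length. Apaf1, which rose less, had 46, a number reached by 1.65% of windows. Casp9, which did not pass the test, had 28, reached by 14.2%. In the first 3 sequences each CpG is in capitals.

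Eda2r, chrX:97377160-97377459, minus strand: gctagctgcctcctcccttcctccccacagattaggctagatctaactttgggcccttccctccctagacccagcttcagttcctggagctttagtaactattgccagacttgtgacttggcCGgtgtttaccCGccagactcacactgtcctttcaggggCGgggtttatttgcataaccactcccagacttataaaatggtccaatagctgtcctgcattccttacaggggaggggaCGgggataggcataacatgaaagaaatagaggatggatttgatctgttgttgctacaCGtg

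Apaf1, chr10:91082694-91082993, minus strand: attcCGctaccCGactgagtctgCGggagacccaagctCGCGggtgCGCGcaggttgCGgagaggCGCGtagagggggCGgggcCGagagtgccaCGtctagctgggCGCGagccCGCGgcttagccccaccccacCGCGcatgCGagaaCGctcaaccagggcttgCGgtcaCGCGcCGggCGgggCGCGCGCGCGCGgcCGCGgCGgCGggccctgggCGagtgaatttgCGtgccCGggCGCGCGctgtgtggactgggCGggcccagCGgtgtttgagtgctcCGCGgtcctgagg

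Casp9, chr4:141793362-141793661, plus strand: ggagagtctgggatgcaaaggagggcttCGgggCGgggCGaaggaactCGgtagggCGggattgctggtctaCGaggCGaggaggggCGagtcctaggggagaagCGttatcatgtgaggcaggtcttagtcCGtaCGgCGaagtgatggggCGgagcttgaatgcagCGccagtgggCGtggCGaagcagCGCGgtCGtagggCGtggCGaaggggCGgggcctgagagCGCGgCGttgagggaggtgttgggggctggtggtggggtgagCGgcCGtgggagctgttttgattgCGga

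The Aen window is shown for a single match to the 10-letter p53 half-site consensus, in capitals, which lies within the 50 bases after the annotated start. Searched on both strands, that consensus was in 8.36% of all windows and in none of the other 7 genes' windows. The window of another annotated start of Aen (78895808 to 78896107) holds the same match, before that start.

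Aen, chr7:78895677-78895976, plus strand: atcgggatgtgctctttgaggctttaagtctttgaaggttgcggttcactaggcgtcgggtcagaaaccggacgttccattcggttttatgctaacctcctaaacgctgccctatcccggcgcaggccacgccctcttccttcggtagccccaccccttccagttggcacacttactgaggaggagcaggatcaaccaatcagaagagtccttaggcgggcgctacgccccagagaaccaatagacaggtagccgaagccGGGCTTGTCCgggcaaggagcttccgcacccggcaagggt

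The windows of Aen held 20 and 21 CpG, which are not marked in its sequence, and the remaining windows held 14 (Fas), 11 (Tnfrsf1a), 22 (Fadd) and 5 (Casp8). The letters TATAAA were found in Eda2r and in no other of the 8 genes' windows, against 13.6% of all windows on either strand. CCAAT was in the windows of Eda2r, Casp8 and Aen (37.4% of all windows), and GGGCGG in those of Fas, Eda2r, Fadd, Casp9 and Apaf1 and in the other window of Aen (35.7%). Windows with more CpG than the median of 7 occurred among genes that rose and among genes that did not pass. Eda2r and Casp8, both called higher, had fewer, at 5 each. The Casp8 window, 58802252 to 58802551, lies inside the gene, which begins at 58795374. Likewise the Tnfrsf1a window, 125349473 to 125349772, lies inside its gene, which begins at 125349362. Whether CpG number bears on the changes was not tested.

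In the knockout the 4 receptor genes rose, the apoptosome gene and the nuclease gene rose, while the adaptor and the initiator caspases had log2 fold changes between -0.15 and 0.19. Of the 9 genes, 7 were higher and 0 lower by edgeR's quasi-likelihood test at a Benjamini-Hochberg adjusted p below 0.05 over all genes tested. Of all 20562 genes, 35.2% were called, 18.1% higher and 17.1% lower. In the same 7 genes no knockout library overlapped a control library, against 25.3% of all genes tested. The median log2 fold change was 0.92 over the 9 genes and -0.001 over all genes. The genes were chosen with earlier results of these libraries known, so this count is a description of the set.

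**Figure D1:**
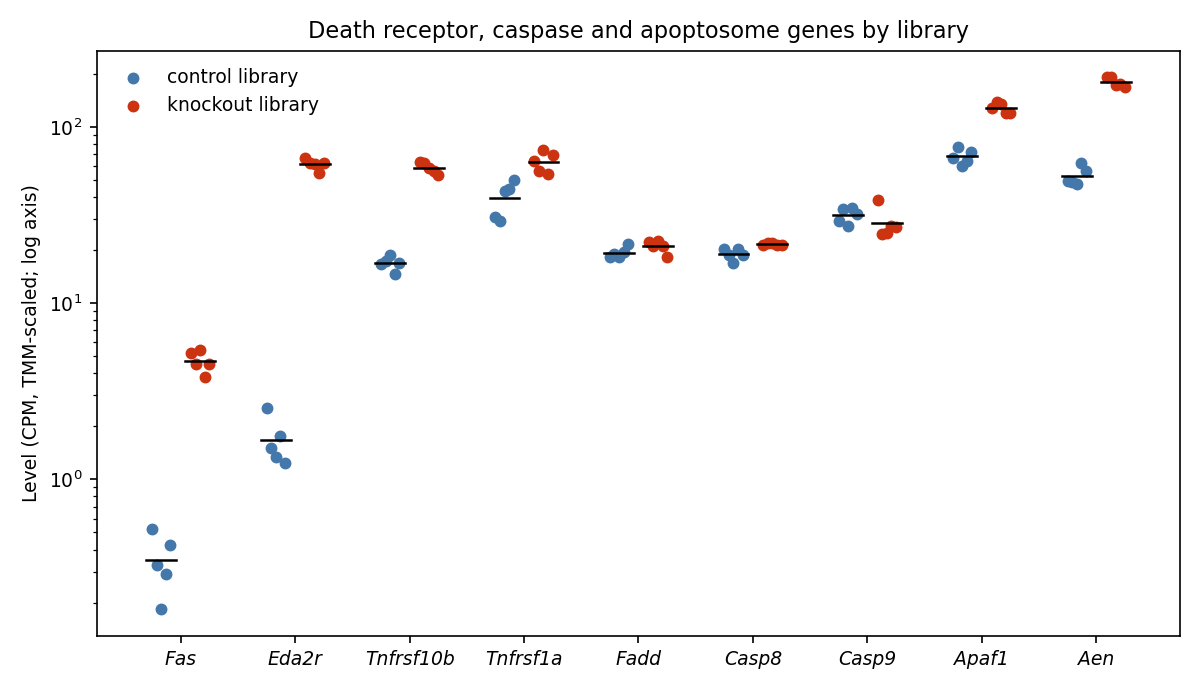
Level of each gene in each library, in CPM on a log axis, with controls in blue and knockouts in red (5 libraries each) and the group mean as a bar. Fas and Eda2r are near the bottom in controls, at 0.351 and 1.68 CPM on average, and reach 4.69 and 61.5 CPM in knockouts, while the Fadd and Casp9 groups overlap.

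Eda2r (ENSMUSG00000034457, chromosome X, 97333840 to 97377216, minus strand), which encodes a receptor for the A2 form of ectodysplasin and lacks a death domain, had the largest fold change of the set. Controls 1 to 5 held 2.54, 1.51, 1.35, 1.77 and 1.24 CPM, and knockouts 1 to 5 held 67.0, 62.3, 61.2, 55.1 and 62.0 CPM. The lowest knockout library was thus far above the highest control. On the log2 scale the change was 5.19 (SE 0.16, edgeR quasi-likelihood adjusted p = 7.4e-10), or 36.5-fold. Within litters the log2 ratio of the group means lay between 4.96 in litter C and 5.65 in litter D. The highest control was control 1, 1 of the 2 libraries with high Xist and the control with Prx1Cre. Without control 1 and knockout 3, the libraries of high Xist, the gene was called as before, and over all 21 alternative analyses its log2 fold change stayed between 5.10 and 5.39.

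Fas (ENSMUSG00000024778, chromosome 19, 34290666 to 34327772, plus strand), the receptor for FAS ligand and the founding example of a death receptor, was barely detected in controls. The 5 controls held 0.526, 0.325, 0.184, 0.292 and 0.427 CPM, which were 80 counts in all. The knockouts held 5.18, 4.51, 5.43, 3.82 and 4.50 CPM, which were 1006 counts. The change on the log2 scale was 3.73 (SE 0.23, edgeR quasi-likelihood adjusted p = 3.2e-07), or 13.3-fold, and the groups did not overlap. Within litters the log2 ratio ran from 3.4 in litter D to 4.88 in litter B, where the lowest control met the highest knockout library.

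Tnfrsf10b (ENSMUSG00000022074, chromosome 14, 69767472 to 69784411, plus strand) encodes the death receptor for TRAIL. Control libraries were tightly grouped at 16.8, 17.4, 18.7, 14.6 and 17 CPM, and knockout libraries at 63.4, 62.2, 58.3, 55.9 and 53.7 CPM. On the log2 scale the change was 1.80 (SE 0.07, edgeR quasi-likelihood adjusted p = 9.0e-09), or 3.47-fold, and the litters were close to each other, from 1.64 to 1.94.

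Tnfrsf1a (ENSMUSG00000030341, chromosome 6, 125349362 to 125362484, plus strand), the main receptor for TNF and a gene expressed by most cell types, rose least among the receptors. Controls held 30.8, 29.1, 43.2, 44.5 and 50.2 CPM and knockouts 64.1, 56.0, 73.9, 54.1 and 69.2 CPM. The groups did not overlap, but the gap between the highest control (50.2 CPM) and the lowest knockout (54.1 CPM) was small. On the log2 scale the change was 0.68 (SE 0.15, edgeR quasi-likelihood adjusted p = 0.00354), or 1.60-fold. The controls of litter A were the lowest of the 5, and the within-litter log2 ratio was 1.01 in litter A, 0.77 in litter B, 0.28 in litter C and 0.46 in litter D. Without litter A the gene was still called at 0.51 (adjusted p = 0.0204).

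Fadd (ENSMUSG00000031077, chromosome 7, 144577318 to 144582463, minus strand), the adaptor that joins death receptors to caspase-8, did not pass the test. Its controls held 18.3, 18.9, 18.4, 19.4 and 21.5 CPM and its knockouts 22.2, 21, 22.6, 21 and 18.3 CPM, with overlapping groups. The log2 fold change was 0.12 with a 95% interval from -0.04 to 0.28 (edgeR quasi-likelihood adjusted p = 0.221). It was higher in the knockout in 3 litters and lower in litter D (-0.24). The antisense gene Faddos shares 6.12% of the exon bases of Fadd, and whether reads were assigned by strand is unknown from the labels.

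Casp8 (ENSMUSG00000026029, chromosome 1, 58795374 to 58847503, plus strand), the initiator caspase of the receptor route, rose by a small amount. Controls held 20.4, 18.6, 16.9, 20.4 and 18.7 CPM and knockouts 21.5, 21.9, 21.9, 21.5 and 21.4 CPM. The groups did not overlap because the knockout libraries were nearly identical to each other (21.6 ± 0.239 CPM, SD, n = 5), with controls at 19.0 ± 1.46 CPM. The log2 fold change of 0.19 (SE 0.06, 95% interval 0.05 to 0.32) had an edgeR quasi-likelihood adjusted p of 0.0318. That call was lost in 11 of 21 alternative analyses, with the log2 fold change between 0.15 and 0.24 in all 21. The 11 include the fit with the litter-matched replicate number as a block (0.19, adjusted p = 0.0610) and the fit without litter A (0.21, 0.151). Also among them are the fits that left out control 2, 3 or 5 or knockout 1, 2, 3 or 4 (0.15 to 0.19, adjusted p = 0.0544 to 0.0700). With litter as a term the call was kept (0.19, edgeR quasi-likelihood adjusted p = 0.0426).

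Casp9 (ENSMUSG00000028914, chromosome 4, 141793612 to 141815976, plus strand), the initiator caspase of the apoptosome, did not pass. Controls held 29.1, 34.1, 27.5, 34.6 and 32.2 CPM. Knockout 1 stood at 38.3 CPM, above every control, and knockouts 2 to 5 at 24.6, 25, 27.3 and 27.2 CPM, below every control. With all libraries the log2 fold change was -0.15 with a 95% interval from -0.40 to 0.11 (edgeR quasi-likelihood adjusted p = 0.376). Without knockout 1 it was -0.28 and passed (adjusted p = 0.0217). The within-litter ratio was -0.01 in litter A, which holds knockout 1, and -0.14, -0.34 and -0.24 in litters B, C and D. The genes Cela2a and Ctrc on the opposite strand each share 1.81% of the exon bases of Casp9.

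Apaf1 (ENSMUSG00000019979, chromosome 10, 90989311 to 91082770, minus strand), the scaffold that caspase-9 binds, rose in every litter. Controls held 66.7, 76.9, 60.1, 63.7 and 72.3 CPM and knockouts 127.4, 138.2, 135.6, 120.6 and 120.5 CPM. On the log2 scale the change was 0.92 (SE 0.07, edgeR quasi-likelihood adjusted p = 1.4e-06), or 1.89-fold, with no overlap and a within-litter range of 0.74 to 1.17.

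Aen (ENSMUSG00000030609, chromosome 7, 78895854 to 78911209, plus strand) encodes the apoptosis-enhancing nuclease, an exonuclease that p53 induces. Controls held 49.5, 48.9, 47.4, 62.1 and 56.1 CPM and knockouts 191.0, 190.7, 172.9, 175.0 and 168.9 CPM. Per length of exon it stood above the other 8 genes in the knockouts. The change on the log2 scale was 1.77 (SE 0.08, edgeR quasi-likelihood adjusted p = 1.2e-08), or 3.4-fold, and ran from 1.49 in litter C to 1.96 in litter A.

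**Figure D2:**
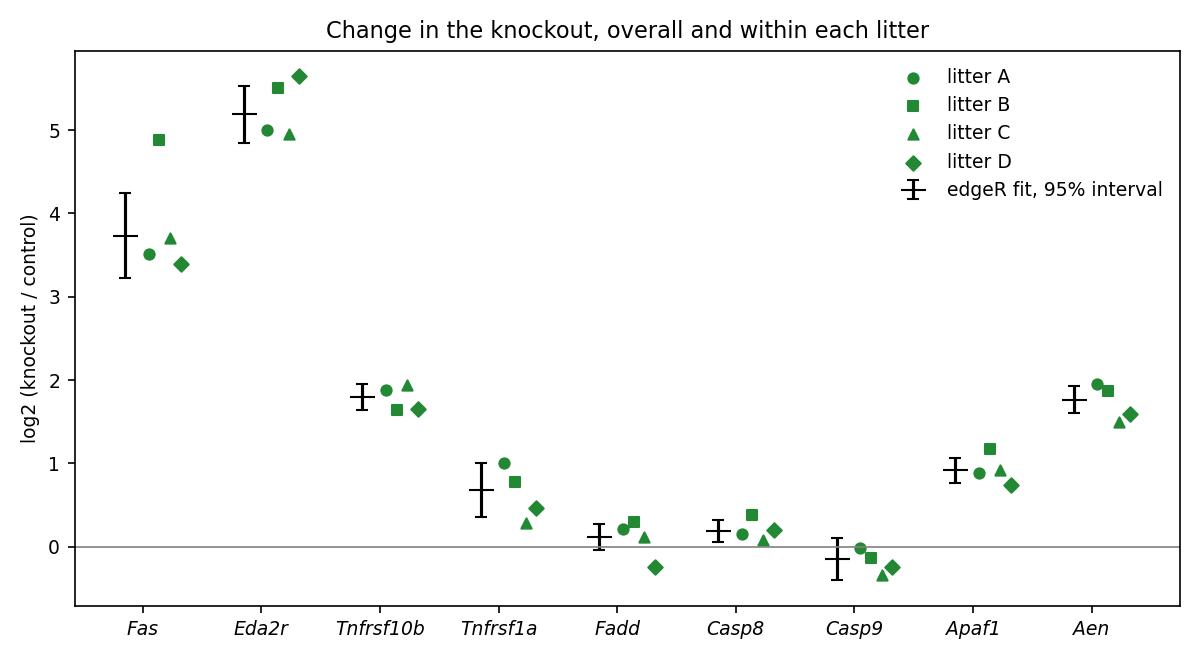
Log2 ratio of knockout to control for each gene: the edgeR estimate with its 95% interval in black, and the ratio of group means within each of the 4 litters in green (litter A has 2 libraries a group, the others 1). The 7 called genes are above 0 in all 4 litters, Fadd is below 0 in litter D, and Casp9 is below 0 in all 4.

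Control 1, the control that carried Prx1Cre with 1 floxed allele, held the highest level of Fas and of Eda2r among the controls, at 0.526 and 2.54 CPM. The highest of the other controls were at 0.427 and 1.77 CPM. It also had the highest Casp8 (20.4 CPM, as in control 4) and the lowest Fadd (18.3 CPM, next to 18.4 CPM in control 3), and lay within the range of the other controls for the remaining genes. With controls labelled as without Cre only, the same genes but Casp8 were called (6 of 9). Of all 21300 genes tested in that fit, 3054 were higher and 2727 lower.

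Because CPM of genes of different length cannot be compared, levels between genes were set in CPM per kilobase (kb) of the gene's exons. In controls the order from the top was Tnfrsf1a (15.3 ± 3.56 CPM per kb, SD, n = 5), Aen (9.10 ± 1.07), Apaf1 (7.53 ± 0.740), Casp8 (6.56 ± 0.505), Casp9 (6.06 ± 0.599), Fadd (4.95 ± 0.337), Tnfrsf10b (3.10 ± 0.275), Eda2r (0.285 ± 0.0885) and Fas (0.170 ± 0.0634). The ranges of neighbours overlapped from Aen down to Fadd, and between Eda2r and Fas. In knockouts the order was Aen (31.0 ± 1.79 CPM per kb), Tnfrsf1a (24.5 ± 3.26), Apaf1 (14.2 ± 0.915), Tnfrsf10b (10.8 ± 0.755), Eda2r (10.4 ± 0.723), Casp8 (7.48 ± 0.0826), Casp9 (5.48 ± 1.08), Fadd (5.39 ± 0.437) and Fas (2.27 ± 0.308). Only the neighbours Tnfrsf10b and Eda2r, and Casp9 and Fadd, overlapped there. Tnfrsf10b and Eda2r, which lay below Fadd and the caspases in controls, thus lay above them in knockouts, while Fas remained the lowest of the 9.

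**Figure D3:**
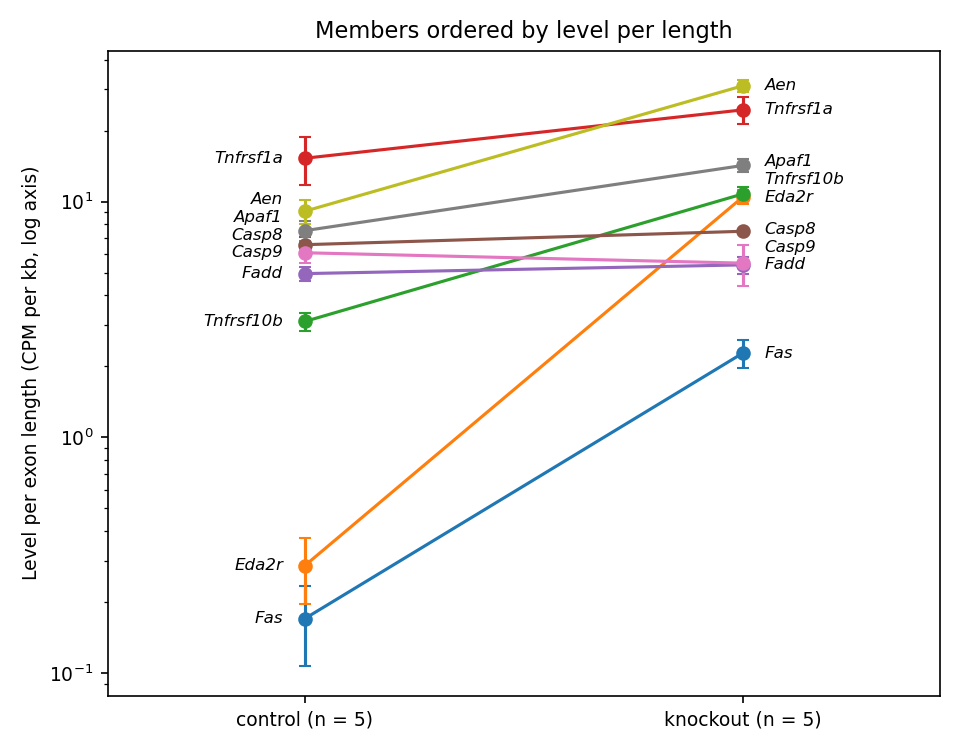
Mean level per kilobase of exon on a log axis in controls (left) and knockouts (right), with SD bars over 5 libraries. The lines of Eda2r (0.285 to 10.4 CPM per kb) and Tnfrsf10b (3.10 to 10.8) cross those of Casp8, Casp9 and Fadd, which stay between 4.95 and 7.48.

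To set genes of one route side by side within a library, 5 ratios of level per length were taken. The pairs were chosen after the values had been seen, with a partner that changed less, so the ratios are a description and carry no test. The ratio of Fas to Fadd was 0.0324 in controls and 0.420 in knockouts (geometric means), a log2 difference of 3.70. Tnfrsf10b to Fadd went from 0.626 to 2.0 (1.68), and Tnfrsf1a to Fadd from 3.02 to 4.53 (0.58). On the mitochondrial route, Apaf1 to Casp9 went from 1.24 to 2.63 (1.08). Between the receptors of the 2 ectodysplasin forms, Eda2r to Edar, the receptor for the A1 form, went from 0.165 to 2.84 (4.11).

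The rest of the pathway was read from a list of 57 further genes, of which 53 passed the filter and 4 (Fasl, Lta, Casp12 and Zbp1) did not. Of the 53, 19 rose, 6 fell and 28 did not pass, against 18.1% higher and 17.1% lower over all genes, and the median log2 fold change was 0.12. With the replicate block 17 rose and 5 fell, and over all 20562 genes 3491 rose and 3359 fell. With litter as a term 19 rose and 5 fell, and over all genes 3723 rose and 3591 fell. Without litter A, 3 against 3, 13 rose and 3 fell of 52 tested. Over all 20566 genes tested in that fit, 2002 rose and 2021 fell.

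The ligands of FAS, of the TRAIL receptor and of the TNF receptors were scarce. Fasl, the ligand of FAS, held 16 counts over all controls and 7 over all knockouts and was not tested. Tnfsf10, which encodes TRAIL, was at 0.242 ± 0.0657 CPM in controls, against 0.372 ± 0.177 CPM in knockouts (SD, n = 5 each) and did not pass (log2 fold change 0.61, edgeR quasi-likelihood adjusted p = 0.212). Tnf rose from 0.0733 ± 0.0320 CPM to 0.277 ± 0.0628 CPM (1.86, SE 0.35), on 17 and 59 counts in all. Eda, the ectodysplasin gene, was the one of the 5 tested ligands that fell. It stood at 6.11 ± 2.06 CPM in controls, against 3.80 ± 0.703 CPM in knockouts (-0.68, SE 0.22, adjusted p = 0.0309). Its groups overlapped, and the call was lost without control 4 or 5, without knockout 1 or 3, and with controls without Cre only (-0.67 to -0.53, adjusted p = 0.0558 to 0.0779). Eda2r was thus higher and Eda lower in the knockouts, and the gene counts do not tell the A1 form of Eda from the A2 form.

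Among 9 other receptors of the family, 5 rose and 1 fell. Edar rose from 6.27 ± 1.81 CPM to 13.5 ± 2.07 CPM (log2 fold change 1.10, SE 0.17) and its adaptor gene Edaradd from 5.65 ± 0.912 CPM to 10.1 ± 1.26 CPM (0.84, SE 0.13). The ectoderm markers were also higher in these libraries, and their part was not tested. Tnfrsf1b, a further receptor for TNF, rose from 3.83 ± 0.812 CPM to 8.06 ± 1.21 CPM (1.07, SE 0.16). The macrophage markers were higher in the same libraries, and their part was not tested. Tnfrsf11b, a secreted decoy receptor, rose from 0.910 ± 0.119 CPM to 2.34 ± 0.671 CPM (1.36, SE 0.21). The receptor that fell, named after its values were seen, was Ngfr, at 33.1 ± 6.89 CPM and 15.7 ± 4.15 CPM (-1.08, SE 0.18). The other 2 that rose, also named after the values were seen, were Tnfrsf21 (0.27) and Tnfrsf12a (0.71). Ngfr, Tnfrsf21 and Tnfrsf12a were not followed one by one over the alternative analyses.

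Of 7 adaptors and kinases 3 rose, Edaradd among them, and 4 did not pass. Pidd1, a death domain protein that activates caspase-2 and that p53 induces, rose from 29.4 ± 3.0 CPM to 54.8 ± 5.03 CPM (log2 fold change 0.90, SE 0.08, edgeR quasi-likelihood adjusted p = 6.7e-06). Daxx, a binding partner of FAS and a histone chaperone, rose from 57.1 ± 6.66 CPM to 67.6 ± 3.78 CPM (0.24, SE 0.08). The Daxx call was lost without control 1 or 2, without knockout 3 or 5, without litter A and without the libraries of high Xist (0.16 to 0.23). Casp2, the caspase downstream of PIDD1, was at 108 ± 11.5 CPM and 102 ± 7.77 CPM and did not pass (-0.08, adjusted p = 0.457).

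Casp6, an effector caspase gene, fell from 47.0 ± 1.74 CPM to 41.9 ± 2.21 CPM (log2 fold change -0.16, SE 0.05, edgeR quasi-likelihood adjusted p = 0.0243). That fall was not called in 8 of the 21 alternatives (-0.16 to -0.11, adjusted p = 0.0529 to 0.211). They include the replicate block, scaling by library size only, and the fits without litter A, without control 1 and without knockout 1 or 3. With litter as a term the Casp6 call was kept (-0.16, edgeR quasi-likelihood adjusted p = 0.0455).

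Of 8 inhibitors 0 rose and 2 fell. Xiap, which blocks caspases directly, fell from 94.6 ± 4.99 CPM to 80.3 ± 5.55 CPM (log2 fold change -0.24, SE 0.06, edgeR quasi-likelihood adjusted p = 0.00563). Tnfaip3, a brake on TNF signaling, fell from 5.05 ± 1.17 CPM to 2.73 ± 1.03 CPM (-0.88, SE 0.24). Knockout 5 at 4.50 CPM lay within the control range of Tnfaip3, and the call was lost without litter A (-0.84, adjusted p = 0.122). Cflar, which competes with caspase-8 for FADD, was at 43.1 ± 3.24 CPM and 39.5 ± 3.0 CPM and did not pass (-0.13, adjusted p = 0.181).

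Of 5 mitochondrial factors, Cycs and Htra2 rose and the other 3 did not pass. Cycs, which encodes cytochrome c, rose from 36.9 ± 4.27 CPM to 53.8 ± 8.89 CPM (log2 fold change 0.54, SE 0.11). Htra2, which relieves the block by XIAP, rose from 27.7 ± 0.502 CPM to 35.3 ± 1.62 CPM (0.35, SE 0.05). The genes Aup1 and Loxl3 share 25.6% and 18.2% of the exon bases of Htra2. Of the 6 caspase substrates and nucleases 2 rose and 1 fell. Dffb, the caspase-activated DNase, rose from 10.6 ± 0.894 CPM to 13.7 ± 0.839 CPM (0.38, SE 0.08), and the kinase gene Pak2 from 142 ± 2.66 CPM to 167 ± 4.57 CPM (0.23, SE 0.03). Acin1, a chromatin condensation factor cut by caspases, fell by 0.12 on the log2 scale (SE 0.04), a call lost in 15 of the 21 alternatives.

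Of 7 tested inflammatory caspases, necroptosis genes and gasdermins 3 rose and 4 did not pass. Casp1, the inflammatory caspase, rose from 0.417 ± 0.0854 CPM to 1.19 ± 0.258 CPM (log2 fold change 1.51, SE 0.22), with macrophage markers higher in the same libraries. Ripk3, the kinase of necroptosis, rose from 14.3 ± 1.73 CPM to 21 ± 1.02 CPM (0.55, SE 0.08). Gsdme, a gasdermin gene, was higher by 0.19 (SE 0.07, edgeR quasi-likelihood adjusted p = 0.0475), a call lost in 15 of the 21 alternatives. The relatives of Aen changed less than Aen did. Isg20 was at 0.334 ± 0.0529 CPM and 0.543 ± 0.142 CPM (0.68, SE 0.23) and Isg20l2 at 98.0 ± 5.74 CPM and 107 ± 2.11 CPM (0.13, SE 0.04), with calls lost in 13 and 16 of the 21 alternatives.

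**Figure D4:**
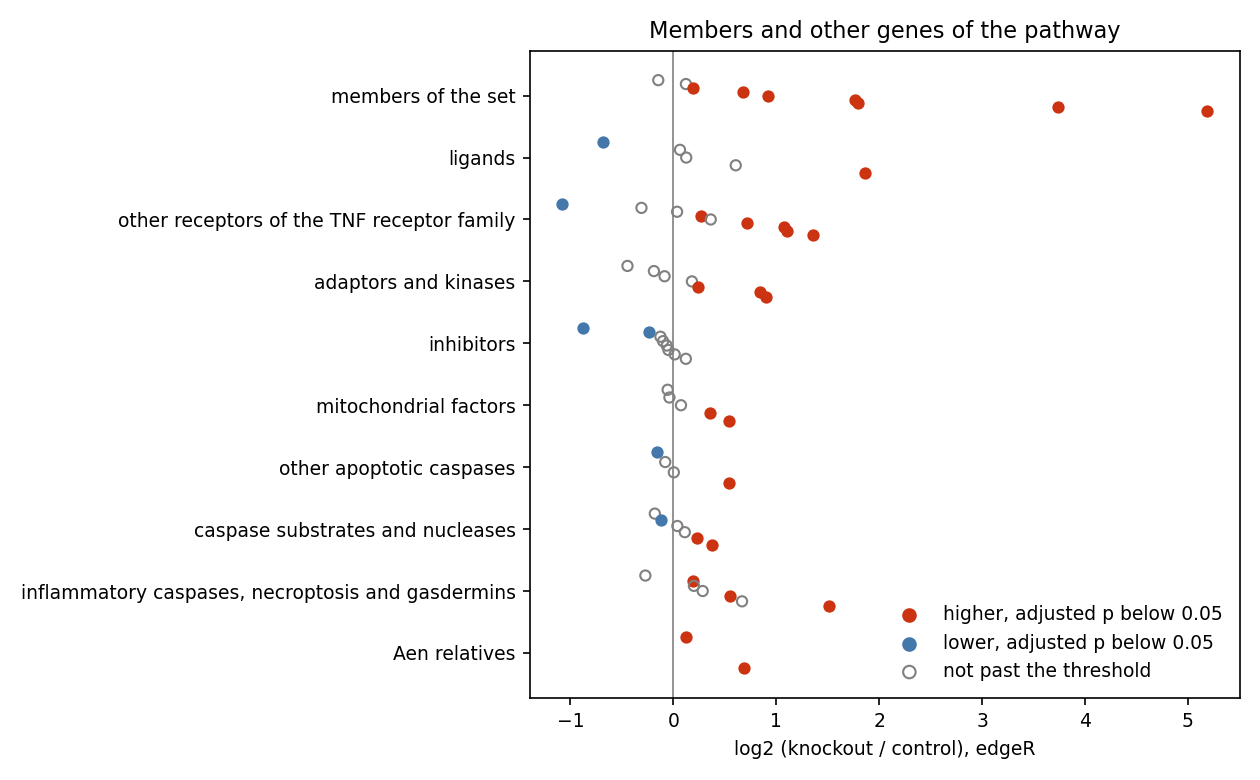
Log2 fold change of knockout over control for the 9 genes (top row) and for the 53 tested genes of the pathway list by role, 1 point per gene. Filled red points were called higher, filled blue points lower and open points were not called, and the point farthest from 0 in the inhibitor row is Tnfaip3 (-0.88).

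The genes whose levels followed each member most closely over the 10 libraries were taken by Pearson's r of log2 CPM among 15700 genes with a mean of at least 1 CPM. Each r holds the difference between groups that all called genes share, so the r of the deviations from group means is given beside it. For Eda2r they were Mapkapk3 (0.998, and 0.79 for the deviations) and Gm29797 (0.997, 0.75), for Fas Ckap2 (0.996, 0.87) and Ppp1r36 (0.992, 0.81), and for Tnfrsf10b Btg2 (0.998, 0.81) and 9230114K14Rik (0.998, 0.81). For Aen they were Mab21l3 (0.998, 0.91) and Bax (0.998, 0.88), for Apaf1 Acad12 (0.989, 0.79) and Gm15910 (0.989, 0.75), and for Tnfrsf1a Gm7334 (0.977, 0.93) and Pdcd11 (0.968, 0.91). Fadd was close to 2510046G10Rik (0.942, 0.93), Casp8 to Polr2h (0.966, 0.90) and Slc25a17 (0.961, 0.89), and Casp9 to Snora17 (0.963, 0.96) and Gm3362 (0.935, 0.92). Among the 9 themselves the r of deviations ran from -0.62 (Tnfrsf10b with Casp8) to 0.71 (Eda2r with Casp8). The 10 libraries differ in depth and come from 4 litters, which these deviations also hold.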

How the data were processed

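RNA-seq of 10 forelimb bud libraries was used. The authors deposited estimated counts per gene, made with Salmon 0.8.2 against mm10 per the submitters' processing notes, which also list R 3.4.1 and DESeq2 1.16.1. 0.0592% of them were whole numbers (within 1e-06), and they were rounded to whole counts. A second deposited table holds a signal, counts divided by a size factor per library, from which 100.00% of values gave back the rounded count within 0.01. It was used only for the limma alternatives. Annotation was GENCODE M21, which gave a symbol to 47224 of the identifiers in the table and none to 505. The sources used here do not give the strand setting of the counting. 0 columns belonged to no sample.

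Genes with low counts were left out (filterByExpr, minimum count 10, minimum total 15), libraries were scaled by TMM, and knockouts were compared with controls by edgeR 4.0.16 (R 4.3.3) with the quasi-likelihood test and Benjamini-Hochberg adjustment over 20562 genes at 0.05, without covariates. The edgeR step was tested on simulated counts, drawn without differences between litters. No pair of libraries within a group agreed within sampling noise (chi-square per degree of freedom 17.5 to 49.6). A count of 3 corresponds to 0.060 to 0.090 CPM. The 95% intervals of log2 fold changes come from the quasi-likelihood fit and include the spread between libraries. Each library is labelled as its own embryo, and p-values weigh the group difference against the spread between these libraries. The members and lists were chosen with earlier results of these data known. Text names all 9 genes, 11 pathway genes whatever their test, up to 3 further genes per role chosen among those called by smallest adjusted p, and the 2 genes most like each member. A few genes that this rule names are not reported here. The 5 ratios were chosen after the values were seen and are given without a test. Figures were drawn with matplotlib 3.10.9.

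Same-numbered libraries share a litter per the labels. Within litter A, with 2 libraries a group, only the replicate number pairs a control with a knockout. Deviations of same-numbered libraries from the group means correlated at -0.01, 0.16, -0.02, 0.04 and 0.20 for numbers 1 to 5. In all, 21 alternatives were run, with DESeq2 1.42.0 and limma 3.58.1 (pseudocounts 1 and 0.1) among them.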

Additional observations from a re-analysis of the deposited data

Results flagged for a closer look

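Single libraries stood apart from the rest of their group in 4 of 74 groups of 5 values checked, by Dixon's ratio above 0.71. Chance flags about 5% of groups, so a number of this size is near what chance gives. Casp9 in knockout 1 was at 38.3 CPM, with the other knockouts at 24.6 to 27.3 CPM, and the Casp9 test changes with that library. Casp6 in control 1 was at 49.99 CPM, with the other controls at 45.5 to 46.7 CPM. Fasl in control 4 was at 0.250 CPM, with the other controls at 0 to 0.0450 CPM. Fasl in knockout 2 was at 0.115 CPM, with the other knockouts at 0 to 0.0249 CPM.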

How the results depend on the processing

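Of 36 single-gene results, 26 kept their direction and their side of the threshold in all 21 alternatives, among them 7 of the 9 genes of the set, with Casp8 and Casp9 the exceptions. A call was lost in at least 1 alternative for 9 genes (Casp8, Eda, Casp6, Daxx, Tnfaip3, Acin1, Gsdme, Isg20 and Isg20l2) and gained for 1 (Casp9 without knockout 1), and 0 called results reversed. Without litter A, which leaves 3 libraries a group, 4023 genes were called in place of 7245 and 16 pathway genes in place of 25. With the replicate block, which pairs same-numbered libraries of a litter, 6850 genes, 6 of the 9 genes and 22 pathway genes were called. Within litter A that pairing rests on the replicate number only. With litter as a term, 7314 genes, 7 of the 9 genes and 24 pathway genes were called. The block ended the calls of Casp8, Casp6, Acin1, Gsdme and Isg20l2 and changed no other call among the named genes. Leaving out 1 replicate at a time gave 6279 to 7028 genes, 6 to 7 of the 9 genes, and 19 to 25 pathway genes. Scaling by library size only raised the share of calls that were higher from 51.3% to 62.2% and moved the median log2 fold change of all genes to 0.05. With 1 replicate left out the log2 differences of the ratios ran from 3.50 to 3.88 (Fas to Fadd), 1.62 to 1.73 (Tnfrsf10b to Fadd), 0.49 to 0.64 (Tnfrsf1a to Fadd), 1.01 to 1.2 (Apaf1 to Casp9) and 3.98 to 4.29 (Eda2r to Edar). Depth limits Fas in controls (80 counts), Tnf and Fasl.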
